A study of Homo sapiens with 6 samples.

Results

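Kinesins are motor proteins that turn the hydrolysis of ATP into movement along microtubules or into the shortening of microtubule ends. Their genes were taken here as all rows whose symbol is KIF or KIFC followed by a number and, at most, 1 of the letters A, B or C. This rule gave 41 genes of the 25662 in the deposited expression values. By known role, 13 were grouped as mitotic kinesins, 17 as transport kinesins and 11 as ciliary and other kinesins. These classes were chosen with earlier results of these data known. KIF2B, also a mitotic kinesin, was not analysed here, and the kinetochore motor CENPE, a kinesin by structure whose name does not follow the rule, is given among the partner genes.

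The cells were A375, an established human melanoma line with an activated BRAF kinase. BMH-21, a DNA intercalator, inhibits RNA polymerase I, which transcribes ribosomal RNA. The BMH-21 group, 3 libraries, received the compound at 1 µM for 24 hours. The control group, 3 libraries, received DMSO, although its titles give a time of 0 hours. The time of the controls in culture is not settled, so effects of the compound and of 24 hours more in culture cannot be told apart. Both groups are the same cell line in the same serum-containing medium, and the submitters call the 3 libraries of each group biological replicates. All levels are TPM, a transcript abundance scaled by transcript length and to about the same total in every library. Levels of different genes are set side by side on this scale. How far base composition or library preparation shaped the level of each gene was not tested, which limits comparisons between genes.

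In a dividing cell, mitotic kinesins push spindle poles apart, move and align chromosomes, trim microtubule ends and build the midzone at which the cell splits. Their transcripts are known to accumulate in the G2 and M phases of the cycle. Transport kinesins carry vesicles, organelles, RNA and ciliary cargo along interphase microtubules in all cells, and several are best known from neurons. Set side by side in the same libraries, both kinds show whether transcripts of motors of one family with different tasks moved alike.

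Across tested genes, which are not independent of each other, Pearson's r was 0.9799 to 0.992 within a group and 0.934 to 0.949 between groups. Control replicate 2 stood apart in its make-up, with 7.61% of TPM from mitochondrially encoded genes against 10.9% to 14.6% in the other 5 libraries. TPM keeps no read totals, so depth is unknown. Genes with a mean of at least 1 TPM over the 6 libraries were tested with limma on log2(TPM + 1), 12481 in all, with calls made below an adjusted p of 0.05 (Benjamini-Hochberg). Of these genes 12.9% were called lower and 23.3% higher with BMH-21, and the tested genes had a median log2 change of 0.19. Of 8 melanocyte lineage markers, SOX10 (654 ± 52.4 with BMH-21 and 540.5 ± 126 TPM in controls, not called) and S100B (111 ± 0.724 with BMH-21 and 77.5 ± 2.71 TPM in controls, called higher, adjusted p = 0.00171) were abundant. PMEL was low and called higher (1.701 ± 0.0995 with BMH-21 and 0.809 ± 0.223 TPM in controls, adjusted p = 0.0186), MITF stayed below 2 TPM in both groups, MLANA was listed at 0 and TYR, TYRP1 and DCT averaged below 1 TPM. Among 10 markers of fibroblasts, epithelium, immune cells and endothelium, only PDGFRB and KRT14 reached a mean of 1 TPM, and neither was called.

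With BMH-21 the tested mitotic kinesins fell, while most transport kinesins were not called. All 8 mitotic kinesins that passed the filter were called lower and none was called higher by limma (none at an unadjusted p under 0.05 either), against 12.9% of all tested genes called lower. Of these 8, 4 averaged below 1 TPM with BMH-21 and passed the filter through their control level. For this reason, and since the classes were chosen with earlier results known, the count is a description. The log2 changes of the 8 ran from -4.14 to -1.29 with a median of -3.43. Of 12 transport kinesins that passed, 2 were called higher (23.3% of all tested genes were), 2 lower and 8 were not called, and their log2 changes ran from -1.09 to 0.87 with a median of 0.17, close to that of all tested genes. In bulk RNA, fewer cells in the phases that make these transcripts and less RNA per cell cannot be told apart.

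The pool of kinesin transcripts as a whole shifted in composition. Protein was not measured in these libraries. Summed over its 13 genes, the mitotic group held 26.8, 17.5 and 12.9 TPM in BMH-21 replicates 1 to 3, against 289, 275 and 292 TPM in control replicates 1 to 3. The transport group held 241, 267 and 222 TPM with BMH-21 and 203, 152 and 212 TPM in controls. Every BMH-21 library was below every control for the first sum and above every control for the second. The second difference lay in KIFC3, the most abundant transport kinesin, since the other 16 genes summed to 108, 122 and 106 TPM with BMH-21 and 125, 95.04 and 131 TPM in controls, with overlapping groups. Mitotic kinesins made up 6.38% ± 2.18 of all kinesin TPM with BMH-21 and 56.5% ± 3.46 in controls (SD, n = 3 each). For each TPM of transport kinesin, the libraries held 0.111, 0.0655 and 0.0581 TPM of mitotic kinesin with BMH-21, against 1.42, 1.81 and 1.38 TPM in controls. The ratio of mean sums, BMH-21 over control, was 0.0668 for the mitotic and 1.29 for the transport group. The second ratio was 1.13 with median-of-ratios scaling, which sets the libraries level by their typical gene, and 0.958 without KIFC3. The ciliary and other kinesins summed to 34.4 ± 2.58 TPM with BMH-21 and 32.1 ± 3.93 TPM in controls. All these sums, shares and ratios combine levels of different genes. In controls, TPM of the mitotic kinesins ranked with GC content at a Spearman's rho of 0.797 and with transcript length at -0.775. The part of library preparation in this was not tested, so the sums and shares carry that limit.

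**Figure D1:**
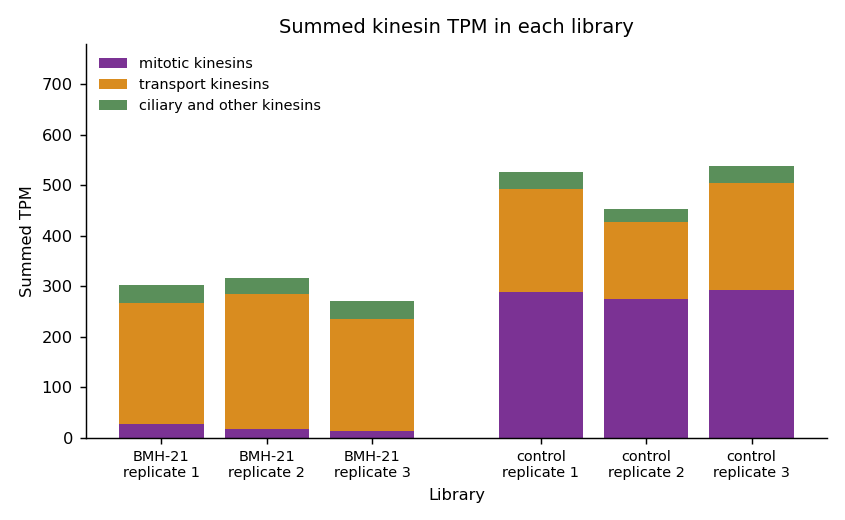
Summed TPM (vertical axis) of the mitotic, transport and other kinesins in each of the 6 libraries, without replicate averaging. The mitotic part of the bar is 26.8, 17.5 and 12.9 TPM in the BMH-21 libraries and 289, 275 and 292 TPM in the controls, while the transport part is 241, 267 and 222 TPM in the BMH-21 libraries and 203, 152 and 212 TPM in the controls.

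Transcripts of motors that set up the bipolar spindle fell. KIFC1, a minus-end motor that clusters spindle poles, was at 2.17, 1.36 and 0.972 TPM in the BMH-21 libraries, against 41.2, 40.2 and 40.98 TPM in the control libraries. The 3 controls lay within about 1 TPM of each other and far above every BMH-21 library (log2 change -4.09 ± 0.18, adjusted p = 5.00e-06). KIF11, also known as Eg5, is the plus-end motor that slides antiparallel microtubules apart and separates the poles. It was at 0.3901, 0.0966 and 0.262 TPM in the BMH-21 libraries, against 1.32, 2.15 and 2.87 TPM in the control libraries and did not overlap between groups (log2 change -1.29 ± 0.21, adjusted p = 0.00252). At such low levels the added pseudocount of 1 TPM shrinks the log2 value, and the ratio of mean TPM, BMH-21 over control, was 0.118. KIF15, which can take over part of the work of KIF11, lay under the filter, at 0.144, 0.02495 and 0.0219 TPM in the BMH-21 libraries, against 0.342, 0.581 and 0.5004 TPM in the control libraries.

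Chromosome-bound motors and regulators of microtubule ends included KIF22 and KIF2C, the mitotic kinesins with the highest control levels. KIF22, also called Kid, binds chromosome arms and pushes them toward the spindle equator, and was at 12.4, 8.94 and 6.41 TPM in the BMH-21 libraries, against 102, 101 and 114 TPM in the control libraries (log2 change -3.42 ± 0.20, adjusted p = 1.41e-05). KIF2C, or MCAK, depolymerizes microtubule ends at centromeres and corrects wrong attachments, and was at 6.48, 5.097 and 3.66 TPM in the BMH-21 libraries, against 63.3, 69.4 and 60.4 TPM in the control libraries (log2 change -3.45 ± 0.18, adjusted p = 9.03e-06). For both genes the lowest control exceeded the highest BMH-21 library several times over. KIF4A, a chromokinesin that also works with PRC1 to set the length of midzone microtubules, was at 0.927, 0.188 and 0.284 TPM in the BMH-21 libraries, against 12.5, 9.89 and 12.1 TPM in the control libraries (log2 change -3.12 ± 0.21, adjusted p = 3.19e-05). Its near copy KIF4B was listed at 0 in the 3 BMH-21 libraries and at 0.0457, 0.0152 and 0.0177 TPM in controls. Since 26.6% of the 31-base stretches of KIF4A transcripts also occur in KIF4B, the split of reads between them is uncertain. KIF18B, which shortens astral microtubules, was at 0.994, 0.379 and 0.151 TPM in the BMH-21 libraries, against 22.9, 12.1 and 19.1 TPM in the control libraries (log2 change -3.65 ± 0.28, adjusted p = 5.28e-05). Its relative KIF18A, which damps chromosome movements at the metaphase plate, was under the filter at 0.0884, 0 and 0.0583 TPM in the BMH-21 libraries, against 0.114, 0.776 and 0.4004 TPM in the control libraries. In KIF18A the lowest control was only slightly above the highest BMH-21 library.

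Kinesins of the midzone and of cytokinesis include KIF20A, whose log2 change was within its standard error of that of KIFC1. KIF20A, or MKLP2, which brings the chromosomal passenger complex to the midzone, was at 2.002, 0.987 and 0.4297 TPM in the BMH-21 libraries, against 38.2, 32.5 and 34.7 TPM in the control libraries (log2 change -4.14 ± 0.25, adjusted p = 1.92e-05). The ratio of its mean TPM was 0.0324. KIF23, or MKLP1, the motor subunit of centralspindlin, was at 1.05, 0.341 and 0.426 TPM in the BMH-21 libraries, against 6.85, 4.77 and 6.18 TPM in the control libraries (log2 change -2.13 ± 0.21, adjusted p = 2.04e-04). KIF14, needed to complete the final separation of daughter cells, was at 0.0348, 0 and 0.00953 TPM in the BMH-21 libraries, against 0.165, 0.375 and 0.401 TPM in the control libraries, and KIF20B at 0.138, 0.0759 and 0.195 TPM in the BMH-21 libraries, against 0.251, 0.745 and 0.626 TPM in the control libraries. Neither KIF14 nor KIF20B passed the filter, and no BMH-21 library reached the lowest control in either gene.

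**Figure D2:**
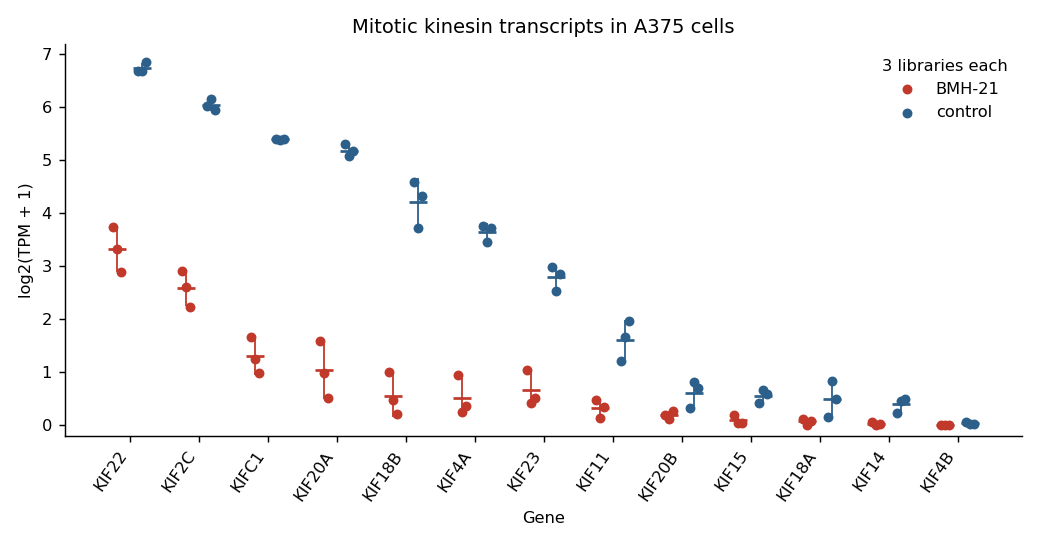
log2(TPM + 1) of the 13 mitotic kinesins in each library (points), ordered by control level, with the mean (horizontal bar) and SD (vertical bar) over 3 libraries. In all 13 genes the BMH-21 points lie below the control points. On this scale the gap is widest in KIF20A and KIFC1 and smaller in the members with control levels near 0, where the added 1 TPM shrinks it. The ratio of mean TPM, BMH-21 over control, was 0.0282 for KIF18B, 0.0324 for KIF20A, 0.0368 for KIFC1 and 0.0471 for KIF14.

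The 5 mitotic kinesins under the filter had a mean over the 6 libraries of at most 0.338 TPM, and like the 8 tested ones they did not overlap between groups, all with BMH-21 lower. Among the genes above 0 in at least 1 library, 12.1% had no overlap with BMH-21 lower. Without the filter, KIF15 (adjusted p = 0.011) and KIF14 (0.0203) were called lower by limma as well, while KIF20B (0.0705), KIF18A (0.129) and KIF4B (0.397) were not. In that fit 6.96% of genes were called lower.

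Within the BMH-21 group most mitotic kinesins had their highest level in the same library. The share of all genes highest in each library was not computed, so the orders below describe the lists only. Of 12 members above 0 there, 11 had their highest level in BMH-21 replicate 1, and the lowest level fell in replicate 2 for 6 members and in replicate 3 for the other 6. KIF20B was the exception, with its highest value in replicate 3. No such order held among controls, where the highest level was in replicates 1, 2 and 3 for 6, 4 and 3 members. Transport kinesins had another pattern in the BMH-21 libraries, with 11 of 17 highest in replicate 2 and 11 lowest in replicate 3. In controls, 10 of 17 transport kinesins were lowest in replicate 2, the library that stood apart.

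Levels of the mitotic members spanned a wide range and ranked with their base composition. In controls, TPM ranked with the GC content of the longest coding transcript at a Spearman's rho of 0.797 over the 13 genes and with its length at -0.775, a description over genes measured in the same libraries. The 8 tested members had a median GC content of 49.4% and the 5 below the filter one of 38.3%. KIF22, the highest in controls, has 58.9% GC in 2505 bases, while KIF11 has 38.3% in 4860.0 bases. Among the 17 transport kinesins the same rho was 0.564 with GC content and 0.0319 with length. Among the 11 ciliary and other kinesins the rho with GC content was -0.155, and over all 41 kinesins it was 0.281. The part of library preparation in these levels was not tested.

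The promoters of the mitotic kinesins share short sequence elements that played no part in choosing the genes. Genes expressed late in the cell cycle often carry the cell cycle genes homology region, bound by complexes with the MuvB core such as DREAM, some distance downstream of CCAAT boxes, which are bound by NF-Y. The letters TTTGAA or TTCGAA for the first element and CCAAT for the second were searched on both strands in RefSeq promoter windows of 300 bases, 250 before and 50 from an annotated transcript start (GRCh38.p14), and a gene counted as holding a motif if any of its windows did. Of 33 kinesins with a window, 30 had one at the outermost start of the gene, while the windows of KIFC1, KIF24 and KIF7 were set at a transcript start 362, 4403 and 7582 bases inside it. TTCGAA reads the same on both strands, and none of the letters of one motif contain the other. The first element was found in 11 of 13 mitotic kinesins (84.6%), in 1 of 12 transport kinesins with a window (8.33%) and in 19.5% of all 27305 genes with one. Among tested genes with a window it was found in 14.8%. CCAAT was found in 11 of 13 mitotic kinesins, in 4 of 12 transport kinesins, in 39.7% of all genes and in 43.7% of tested genes with a window. Both together occurred in 10 of 13 mitotic kinesins (76.9%), in 1 of 12 transport kinesins, KIF5B, and in 7.85% of all genes. Among tested genes called lower, 10.5% held both, and among the other tested genes 5.51%. Of the tested kinesins with a window, 6 of 8 mitotic (75%) and 1 of 7 transport kinesins (14.3%) held both. The transport kinesins KIFC3, KIFC2, KIF21B, KIF13B and KIF5A had no window. KIFC3, called higher, and KIF21B, called lower, are thus absent from this contrast. A match of letters is a description and not a site of binding.

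The 100 bases before the transcript start are shown for 6 mitotic kinesins, to show the spacing of both elements, and for 2 transport kinesins as a contrast. Each is written 5′ to 3′ on the gene's strand, with matches to either motif in capitals (ATTGG is CCAAT on the other strand and TTCAAA is TTTGAA on the other strand).
KIF22: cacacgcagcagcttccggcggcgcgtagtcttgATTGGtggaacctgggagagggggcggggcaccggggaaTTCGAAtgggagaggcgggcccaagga
KIF4A: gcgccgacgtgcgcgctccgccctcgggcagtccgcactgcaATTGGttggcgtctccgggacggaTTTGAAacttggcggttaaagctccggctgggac
KIF11: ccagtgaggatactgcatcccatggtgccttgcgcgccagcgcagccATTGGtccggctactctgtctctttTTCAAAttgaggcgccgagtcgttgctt
KIF23: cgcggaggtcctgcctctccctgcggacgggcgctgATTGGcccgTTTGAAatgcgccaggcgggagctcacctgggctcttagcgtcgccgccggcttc
KIF18A: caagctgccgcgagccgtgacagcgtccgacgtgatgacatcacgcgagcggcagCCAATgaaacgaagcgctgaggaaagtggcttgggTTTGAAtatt
KIF20A: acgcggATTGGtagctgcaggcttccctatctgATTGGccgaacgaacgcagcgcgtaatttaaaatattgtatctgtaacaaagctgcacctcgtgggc
KIF3B: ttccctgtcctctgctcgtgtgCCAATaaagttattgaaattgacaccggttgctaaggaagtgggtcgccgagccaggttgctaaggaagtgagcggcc
KIF1C: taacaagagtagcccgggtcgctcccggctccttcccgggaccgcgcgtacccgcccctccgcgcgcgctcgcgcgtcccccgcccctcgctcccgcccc

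These stretches lie at chr16:29790651-29790750, chrX:70290004-70290103, chr10:92593030-92593129, chr15:69414249-69414348 and chr5:138179012-138179111 on the plus strand and at chr11:28108157-28108256 on the minus strand, and those of KIF3B and KIF1C at chr20:32277551-32277650 and chr17:4997850-4997949 on the plus strand. In KIF22 the CCAAT match begins 66 bases and the other match 27 bases before the start. For KIF4A these distances are 58 and 34 bases, for KIF11 53 and 28, for KIF23 64 and 55, and for KIF18A 45 and 10. CCAAT was the farther element in all 5 of these genes. KIF20A holds CCAAT at 94 and 67 bases and no TTTGAA or TTCGAA in its window, and KIF2C holds neither motif. In KIFC1, KIF18B and KIF14 the homology region letters begin at base 5, 3 and 2 from the transcript start, which for KIFC1 is the inner one, just past the stretch shown for the others. KIF3B, which was called higher, has a lone CCAAT 78 bases before its start, and KIF1C has no match.

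**Figure D3:**
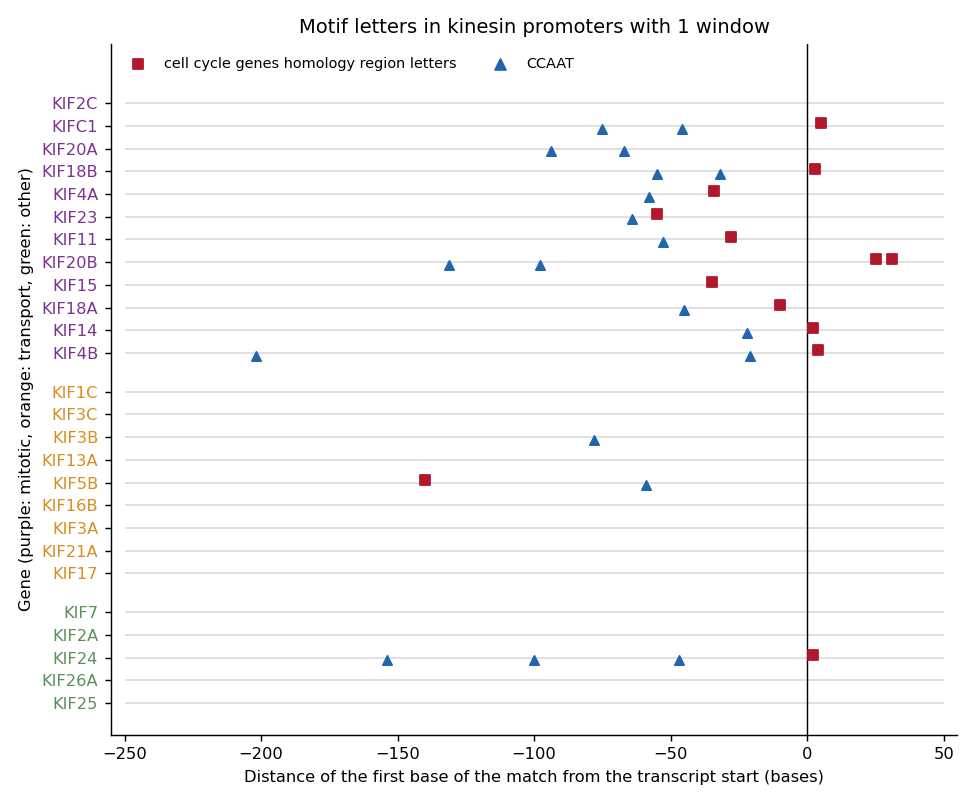
Distance in bases (horizontal axis) from the transcript start to the first base of each motif match, for kinesins with a single promoter window (1 row a gene). In mitotic kinesins the homology region letters (squares) lie between 55 bases before and 31 bases from the start, with CCAAT (triangles) before them where both occur, while most transport kinesin rows are empty.

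Among transport kinesins, 2 genes rose. KIFC3, a minus-end motor of apical and junctional trafficking and the most abundant kinesin in the BMH-21 libraries, was at 133, 145 and 115 TPM in the BMH-21 libraries, against 78.5, 56.5 and 80.9 TPM in the control libraries (log2 change 0.87 ± 0.15, adjusted p = 0.0035). KIF3B, a motor subunit of the heterotrimeric kinesin-2 that drives transport into cilia, was at 12.7, 13.05 and 13.1 TPM in the BMH-21 libraries, against 7.86, 5.296 and 7.35 TPM in the control libraries (log2 change 0.85 ± 0.16, adjusted p = 0.00485). Groups did not overlap in either gene, and control replicate 2 was the lowest library in both. KIF3A, the usual partner of KIF3B, was under the filter at 0.865, 0.804 and 0.789 TPM in the BMH-21 libraries, against 0.281, 0.338 and 0.653 TPM in the control libraries. Its log2 change without the filter was 0.36 (adjusted p = 0.0821). KIF3C, the other subunit that can pair with KIF3A, was at 15.8, 20.4 and 14.1 TPM in the BMH-21 libraries, against 21.02, 15.6 and 22.1 TPM in the control libraries with overlapping groups (log2 change -0.21 ± 0.18, adjusted p = 0.376). Removing both number 2 libraries made it a call as lower (log2 change -0.51, adjusted p = 0.00866).

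The other 2 calls went down. KIF21B, a processive motor that also limits microtubule growth and is best known from neurons and lymphocytes, was at 2.395, 2.64 and 1.81 TPM in the BMH-21 libraries, against 7.402, 4.33 and 6.53 TPM in the control libraries (log2 change -1.09 ± 0.21, adjusted p = 0.00514). KIF1A, the motor of synaptic vesicle precursors in neurons, was at 1.54, 1.68 and 1.49 TPM in the BMH-21 libraries, against 3.01, 3.12 and 2.74 TPM in the control libraries (log2 change -0.62 ± 0.14, adjusted p = 0.0104). Its groups were apart in every library, but it missed the threshold once BMH-21 replicate 1 was left out (adjusted p = 0.0552) and likewise with BMH-21 replicate 3 left out (adjusted p = 0.051). In both cases 1 transport kinesin in place of 2 was called lower, and without control replicate 2, or with both number 2 libraries removed, the counts were 3 and 4. Over all genes, 1991 were called lower without control replicate 2 and 2220 without both number 2 libraries, against 1611 in the main fit.

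No call was made for the other 8 transport kinesins. KIF1C, a motor of dense vesicles and of mRNA to cell protrusions and the most abundant of them, was at 46.6, 53.9 and 50.1 TPM in the BMH-21 libraries, against 59.9, 49.3 and 63.8 TPM in the control libraries (log2 change -0.19 ± 0.12, adjusted p = 0.24). It was called lower with median-of-ratios scaling (log2 change -0.38, adjusted p = 0.0211) and with quantile normalization (adjusted p = 0.0451). KIF1C was also called lower without control replicate 2 (adjusted p = 0.0396) and without both number 2 libraries (log2 change -0.35, adjusted p = 0.0157). KIF13A, which moves recycling endosomes and, in pigment cells, melanosome cargo, was at 3.76, 4.28 and 3.74 TPM in the BMH-21 libraries, against 2.58, 2.84 and 2.99 TPM in the control libraries without overlap (log2 change 0.37 ± 0.14, adjusted p = 0.0728). KIF5B, the ubiquitous heavy chain of conventional kinesin-1, was at 2.35, 1.19 and 2.47 TPM in the BMH-21 libraries, against 1.03, 1.65 and 2.26 TPM in the control libraries (log2 change 0.18 ± 0.24, adjusted p = 0.586), and the neuronal heavy chain KIF5A at 1.86 ± 0.627 TPM in BMH-21 libraries and 1.67 ± 1.05 TPM in control libraries (log2 change 0.16 ± 0.30, adjusted p = 0.705). Both overlapped between groups. KIF1B averaged 4.71 ± 0.0204 TPM in BMH-21 libraries and 4.24 ± 0.951 TPM in control libraries and KIF13B 4.64 ± 0.374 TPM in BMH-21 libraries and 4.09 ± 1.38 TPM in control libraries, again with overlap. KIFC2 was at 8.36 ± 1.57 TPM in BMH-21 libraries and 6.42 ± 2.19 TPM in control libraries (log2 change 0.37 ± 0.25, adjusted p = 0.274), and 17.8% of its exonic bases are shared with FOXH1 on the opposite strand. Under the filter, KIF5C, KIF16B, KIF21A and KIF17 each averaged below 1 TPM in both groups, and their groups overlapped.

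**Figure D4:**
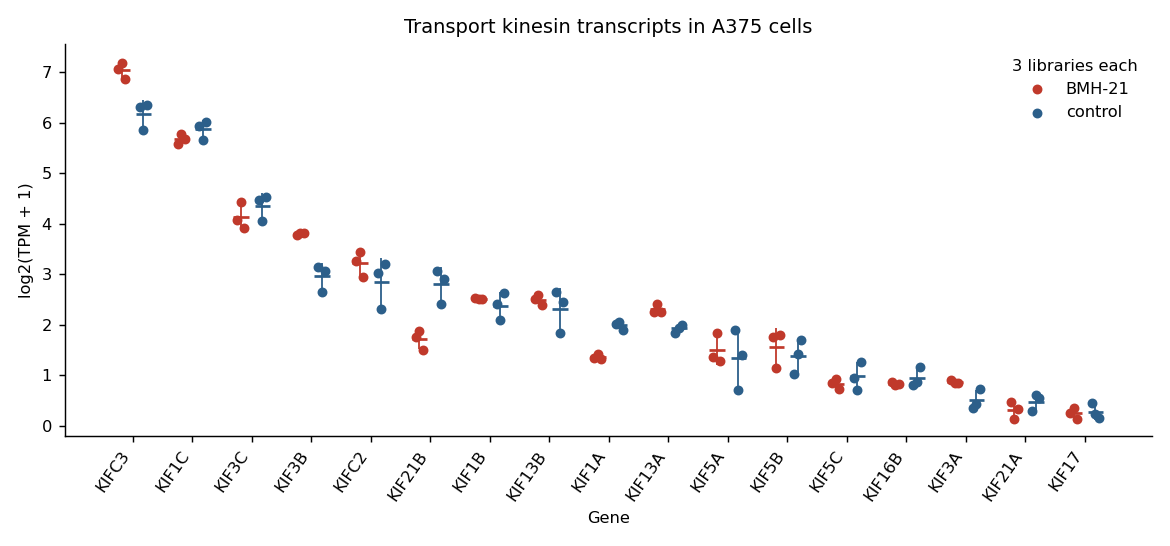
log2(TPM + 1) of the 17 transport kinesins in each library (points), ordered by control level, with the mean (horizontal bar) and SD (vertical bar) over 3 libraries. The BMH-21 points lie above the control points in KIFC3, KIF3B, KIF13A and KIF3A and below them in KIF21B and KIF1A, and the groups overlap in the other 11 genes. Of all genes above 0 in any library, 12.1% had no overlap with BMH-21 lower. The share with BMH-21 higher was not computed, so these gaps are a description.

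Of the ciliary and other kinesins, KIF24 was called lower. KIF24 depolymerizes microtubules at centrioles and holds back cilium formation in cycling cells, and it was at 0.253, 0.112 and 0.2503 TPM in the BMH-21 libraries, against 3.05, 2.22 and 2.35 TPM in the control libraries (log2 change -1.55 ± 0.15, adjusted p = 2.08e-04). Its ratio of mean TPM was 0.0807, and it was the 1 called gene of the 5 tested in this group, against 12.9% of all tested genes called lower. KIF24 averaged below 1 TPM with BMH-21 and passed the filter through its control level. Its window, at the inner transcript start, holds TTCGAA at base 2 from that start and CCAAT at 154, 100 and 47 bases before it, and it was the only gene of this group, among 8 with a window, to hold both. KIF9 and KIF6, relatives known from motile cilia and sperm tails, were at 17.8 ± 2.39 TPM in BMH-21 libraries and 16.9 ± 0.919 TPM in control libraries for KIF9 and 2.36 ± 0.364 TPM in BMH-21 libraries and 1.96 ± 0.203 TPM in control libraries for KIF6, and KIF7, a regulator of Hedgehog signalling at the tip of the cilium, at 7.82 ± 1.51 TPM in BMH-21 libraries and 5.71 ± 1.75 TPM in control libraries. None of these 3 was called. KIF2A, which works both at spindle poles and in neurons, is closely related to KIF2C but was at 5.86, 3.99 and 6.499 TPM in the BMH-21 libraries, against 4.65, 3.3998 and 5.06 TPM in the control libraries with overlapping groups (log2 change 0.26 ± 0.21, adjusted p = 0.358). The other 6 genes stayed below 1 TPM in every library. KIF26B was among them at 0.244, 0.459 and 0.473 TPM in the BMH-21 libraries, against 0.117, 0.0641 and 0.108 TPM in the control libraries, without overlap, and without the filter it was called higher (adjusted p = 0.0275), as were 11.6% of genes in that fit.

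**Figure D5:**
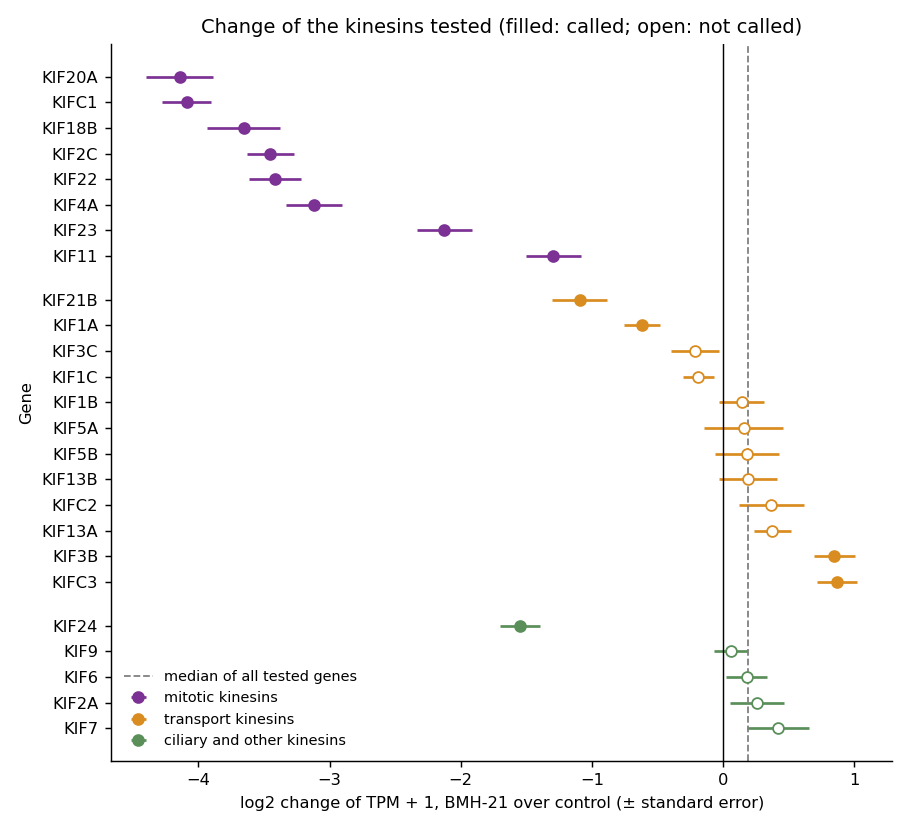
log2 change of TPM + 1, BMH-21 over control, with its standard error, for the 25 kinesins tested. Filled points were called and open points were not, and the dashed line marks the median of all tested genes, 0.19. The 8 mitotic kinesins and KIF24 lie at -1.29 or below, and the 12 tested transport kinesins lie above that value.

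Partners of the mitotic kinesins fell along with them in most cases. Of 19 spindle and midzone partners, 17 were tested, of which 13 were called lower (12.9% of all tested genes were), 1 higher and 3 were not called (median log2 change -1.41). PRC1, the midzone crosslinker that recruits KIF4A, averaged 3.25 ± 0.741 TPM in BMH-21 libraries and 49.95 ± 9.39 TPM in control libraries (log2 change -3.58 ± 0.18, adjusted p = 8.74e-06). TPX2, which binds KIF11 and brings it to the spindle, averaged 3.06 ± 0.954 TPM in BMH-21 libraries and 40.01 ± 7.68 TPM in control libraries, and the crosslinker NUSAP1 averaged 1.12 ± 0.365 TPM in BMH-21 libraries and 14.1 ± 3.78 TPM in control libraries. Of the 13, 5 averaged below 1 TPM with BMH-21 and passed the filter through their control level, so this count too is a description. The count was 10 without control replicate 2 or 3, and 11 without any 1 of the BMH-21 replicates. The 3 members without a call were NUMA1, CKAP5 and CLASP2. CLASP1, a stabilizer of microtubule ends, was called higher (9.702 ± 0.427 with BMH-21 and 5.68 ± 1.58 TPM in controls, log2 change 0.71 ± 0.20, adjusted p = 0.0246), a call lost without BMH-21 replicate 1 or 3. NUMA1 had the highest mean, 77.4 ± 8.56 with BMH-21 and 75.6 ± 13.4 TPM in controls. The kinetochore kinesin CENPE averaged below 0.1 TPM in both groups and was not tested.

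Cargo adaptors and light chains of the transport motors moved upward or were not called. Of 19 tested, 7 were called higher and none lower by limma (0 at an unadjusted p under 0.05), against 23.3% of all tested genes called higher, with 1 called lower with median-of-ratios scaling or quantile normalization (median log2 change 0.37). MAPK8IP3, or JIP3, an adaptor of kinesin-1 and dynein, averaged 42.3 ± 6.57 TPM in BMH-21 libraries and 20.3 ± 7.99 TPM in control libraries (log2 change 1.09 ± 0.27, adjusted p = 0.0157). TRAK2, which links mitochondria to the motors, was at 2.95, 2.53 and 3.62 TPM in the BMH-21 libraries, against 1.42, 1.39 and 1.58 TPM in the control libraries, and FYCO1, which links late endosomes to kinesin-1, averaged 6.898 ± 0.545 TPM in BMH-21 libraries and 4.22 ± 0.835 TPM in control libraries. RHOT2, the mitochondrial anchor with the highest mean, was at 106 ± 6.56 with BMH-21 and 104 ± 18.1 TPM in controls and was not called. Among 26 tested genes of dynein, dynactin and their adaptors, the motor that runs the other way, 4 were called higher and 3 lower, against 23.3% and 12.9% of all tested genes, so neither share exceeded that of all genes (median 0.29). The 3 lower ones were SPDL1, which brings dynein to kinetochores, NDE1, a dynein regulator with roles in mitosis, and the dynactin subunit ACTR1B, with log2 changes of -0.91, -0.74 and -0.67. Of the 4 called higher, the largest rises were in the dynactin subunit ACTR10 (0.82), the dynein light intermediate chain DYNC1LI2 (0.54) and the adaptor HOOK2 (0.40). The light chain DYNLL1 had the highest mean, 619 ± 77.6 with BMH-21 and 491 ± 58.3 TPM in controls, without a call. The count of cargo partners called higher was 1 without BMH-21 replicate 3, 3 without BMH-21 replicate 1 and 4 without BMH-21 replicate 2.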

How the data were processed

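TPM values per gene symbol for 6 A375 libraries, 3 with BMH-21 and 3 controls, were deposited by the authors as a table of 25662 genes. Per the submitters' processing notes, STAR, Salmon and the GRCh38 genome were used, with versions, settings, strand use and annotation not given in the sources used here. RNA was, per the labels' protocols, extracted with Trizol, depleted of ribosomal RNA and copied with random hexamers, while the labels also name polyadenylated RNA. Groups were taken from the sample titles.

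Values were analysed as log2(TPM + 1). Genes with a mean of at least 1 TPM were fitted with limma 3.58.1 in R 4.3.3 (linear model per gene, empirical Bayes with a variance trend, two-sided, Benjamini-Hochberg adjustment over all 12481), without a replicate block. The model was tested on simulated data. ± is the SD over 3 libraries for TPM and the standard error for a log2 change. Depth is unknown, so no counting interval is given. The kinesin classes and partner lists were chosen with earlier results of these data known, and no test over a list was made. The rule for named genes covers all mitotic and transport kinesins with a mean of at least 1 TPM, called or abundant other kinesins, and of each partner list the 3 largest called changes in each direction and the most abundant member. Members under the filter, members of partner lists without a call and genes lost under an alternative were named after their values were seen. Alternatives were a pseudocount of 0.1, no filter, median-of-ratios scaling, quantile normalization, a replicate block and leaving out each library. Leaving out both number 2 libraries, or KIFC3 from a sum, was chosen after seeing the data.

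Transcript length, GC content and overlapping exons came from GENCODE release 29 and promoters from RefSeq (GRCh38.p14). Promoters were found for 33 of 41 kinesins, transcripts for 41. Without known strand use, reads from opposite strands cannot be told apart, which touches KIF22 (13.01% of exonic bases shared with another gene), KIFC1 (12.7%), KIF9 (up to 14.9%) and KIF7 (11.8%).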

Additional observations from a re-analysis of the deposited data

How the results depend on the processing

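All 8 tested mitotic kinesins, KIF24, KIFC3, KIF3B and KIF21B kept their direction and call under every alternative in which they were tested. KIF11 was under the filter without control replicate 2 or 3, which left 7 mitotic calls. Counting KIF2A as mitotic left 8 calls, but KIF2A itself was tested and not called (log2 change 0.26, adjusted p = 0.358). With KIF2A in the group, not all tested mitotic kinesins were called lower. The median of the mitotic kinesins was -4.12 with a pseudocount of 0.1 and -2.13 without the filter, which adds genes of low level. The median of all tested genes was 0.02 under median-of-ratios scaling, 0.06 under quantile normalization and 0.05 without the filter. The median of the transport kinesins was 0.04 under median-of-ratios scaling and -0.02 once control replicate 2 was left out.

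With median-of-ratios scaling, 1881 genes were called higher in place of 2908 and 2376 lower in place of 1611, cargo partners counted 4 higher and 1 lower, and dynein genes 2 higher. With quantile normalization 2316 genes were called higher and 2228 lower, and 1 cargo partner was called lower. Without the filter, 1 ciliary or other kinesin (KIF26B) was called higher and 0 spindle partners were, CLASP1 having missed the threshold. With both number 2 libraries left out, 3625 genes were called higher in place of 2908 and 2220 lower in place of 1611. In that setting 4 transport kinesins were called lower, 11 dynein genes higher and 1 cargo partner lower. Without KIFC3 the ratio of summed transport TPM was 0.958. Without KIF21A, KIF21B and KIF17 the transport group had 1 gene called lower, by construction. The cause of the other shifts was not tested.

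Leaving out 1 library at a time, genes called higher ran from 1671 to 2838, with the lowest counts without BMH-21 replicate 1 (1671) and BMH-21 replicate 3 (1731). Transport kinesins called lower ran from 1 to 3. Spindle partners called lower ran from 10 to 12 and higher from 0 to 1. Cargo partners called higher ran from 1 to 7 and lower from 0 to 1, and dynein genes called higher from 2 to 6. Same-numbered libraries did not deviate together (r = -0.04, -0.34 and -0.08 across genes for numbers 1 to 3), so the numbers were not taken as pairs. With the replicate block 2008 genes were called higher and 1215 lower. In that fit 8 mitotic kinesins and 11 spindle partners were called lower, and cargo partners called higher numbered 2 and dynein genes 1. Depth limits the members near 0 TPM, for which a listed 0 is not an absence.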
